A study of Rattus norvegicus with 28 samples.

Results

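The ATP-binding cassette (ABC) transporters were followed here in primary rat hepatocytes exposed to 3 ligands of the aryl hydrocarbon receptor (AHR). Members were all non-control probes whose gene name on the array begins with Abc, a subfamily letter from a to g and a number, and the brightest probe stood for each gene. This gave 28 genes on 34 probes, of 37806 gene names on the array, and all 28 were among the 34846 gene names tested. Subfamily A had 3 members, B had 7, C had 9, D had 2, E and F had 1 each, and G had 5. Hepatocytes of 2 adult female Sprague-Dawley rats, animals A and B, were plated on Matrigel, kept for 48 h in medium with 0.1 uM dexamethasone and then treated for 24 h. The 7 groups were untreated cells, TCDD (2,3,7,8-tetrachlorodibenzo-p-dioxin) at 0.01 and 1 nM, TCDF (2,3,7,8-tetrachlorodibenzofuran) at 0.1 and 10 nM, and PeCDF (2,3,4,7,8-pentachlorodibenzofuran) at 0.02 and 2 nM, each agent in 0.1% DMSO. RNA of 3 pooled dishes was hybridised on 2-colour arrays against RNA of DMSO-treated cells of the same animal, once with the test RNA in the red channel (orientation +) and once in the green (orientation -), which gave 4 arrays a group and 28 in all. Every level below is therefore a log2 ratio to DMSO, averaged over both orientations of an animal, with n = 2 animals a group. All groups shared strain, sex, substrate and dexamethasone, a glucocorticoid that itself regulates transporter genes. The cells are a short-term culture from 2 rats, and in a whole culture fewer cells of a type cannot be told apart from less RNA per cell.

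ABC proteins use ATP to move lipids, bile constituents, peptides and conjugated drugs across membranes, apart from subfamilies E and F, which lack membrane spans and act on ribosomes. In a hepatocyte the canalicular members form bile: Abcb11 pumps bile salts, Abcb4 places phosphatidylcholine in the outer leaflet, Abcc2 exports conjugates such as bilirubin glucuronide, and Abcg5 with Abcg8 exports sterols. Several ABCC members sit instead in the basolateral membrane and return conjugates to blood, while the AHR, once bound by a dioxin-like ligand, acts with ARNT at DNA elements that hold the core GCGTG.

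The members were measurable on nearly every array. In both channels of all 28 arrays, 25 of them were well above background, the exceptions being Abcc12 (19 test and 21 DMSO channels), Abcg5 (26 and 28) and Abcg8 (27 and 28). No member's spot was saturated. The treatment itself was visible in a list of 5 AHR target genes, of which 5 rose with TCDD 1 nM, 4 with TCDF 10 nM and 5 with PeCDF 2 nM. Cyp1b1, a direct AHR target, had log2 ratios of 3.93, 2.08 and 2.78 in these groups. Of 10 hepatocyte markers, 1 fell with TCDD 1 nM and 1 rose with PeCDF 2 nM, and Alb, Tf and Fgb were saturated on all 4 arrays of each upper-dose group. Of 9 stellate cell markers, 1 fell at each upper dose and 2 rose with PeCDF 2 nM. Of 8 bile duct cell markers, 1 fell with TCDD 1 nM, and no endothelial cell marker changed. Over all gene names, 5.92, 1.26 and 2.67 percent fell with TCDD, TCDF and PeCDF at these doses, and 1.72 percent rose with PeCDF. Of 10 Kupffer cell (liver macrophage) markers, 4 fell with TCDD 1 nM and none with TCDF 10 nM or PeCDF 2 nM, and the log2 ratio of the list's summed intensity was -0.24 to -0.19 on the TCDD 1 nM arrays, -0.23 to -0.09 with TCDF 10 nM and -0.24 to 0.03 with PeCDF 2 nM. None of the Kupffer cell markers was at 0: Cd5l was well above background in 19 of 28 test channels and the others in all 28. The part of these cells in the values below was not tested. The test was limma's moderated test of each group's mean against 0, with Benjamini-Hochberg adjustment over all gene names tested, and a gene was called at an adjusted p under 0.05.

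With TCDD at 1 nM, 10 of the 28 transporters were called, and no member in any group moved by more than 1 log2 unit. The 5 that fell were Abcb4, Abcb11, Abcb1, Abcc6 and Abcc8, and the 5 that rose were Abcb1a, Abcc5, Abcc4, Abca5 and Abcc1. Over all gene names tested, 5.92 percent were called lower and 4.63 percent higher in the same comparison. The median log2 ratio was -0.02 over the 28 members and -0.001 over all genes, which loess holds near 0. At 10 nM TCDF, 2 members were called, Abcb4 and Abcd3, both lower, and none higher, against 1.26 percent of all genes called lower and 1.11 percent higher. At 2 nM PeCDF, 3 were called, Abcb4, Abcd3 and Abca2, again all lower, against backgrounds of 2.67 percent lower and 1.72 percent higher. At an unadjusted p under 0.05 there were 13 members with TCDD 1 nM, 11 with TCDF 10 nM and 7 with PeCDF 2 nM, or 46.4, 39.3 and 25 percent of the members against 23, 12.6 and 17.3 percent of all genes. Centring each array on its median in place of loess left no member called in any of these 3 groups, with 214, 9 and 4 calls over all genes. The TCDD 1 nM values then were -0.78 for Abcb4, -0.72 for Abcb11, 0.58 for Abcb1a and 0.39 for Abcc4. With TCDD at 1 nM, leaving animal A out of the group gave 8 calls and leaving out B gave 5. With PeCDF at 2 nM the same steps gave 0 and 1, and with TCDF at 10 nM 1 and 2. The standard error of a member's group mean had a median of 0.06 on the log2 scale. The half-width of its 95% interval, before adjustment over genes, had a median of 0.12. With 2 animals a call took more than that: the smallest called ratio to DMSO was 0.23 in size (Abcc1 with TCDD 1 nM). Abcb11 with TCDF 10 nM, at -0.35, was not called.

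**Figure D1:**
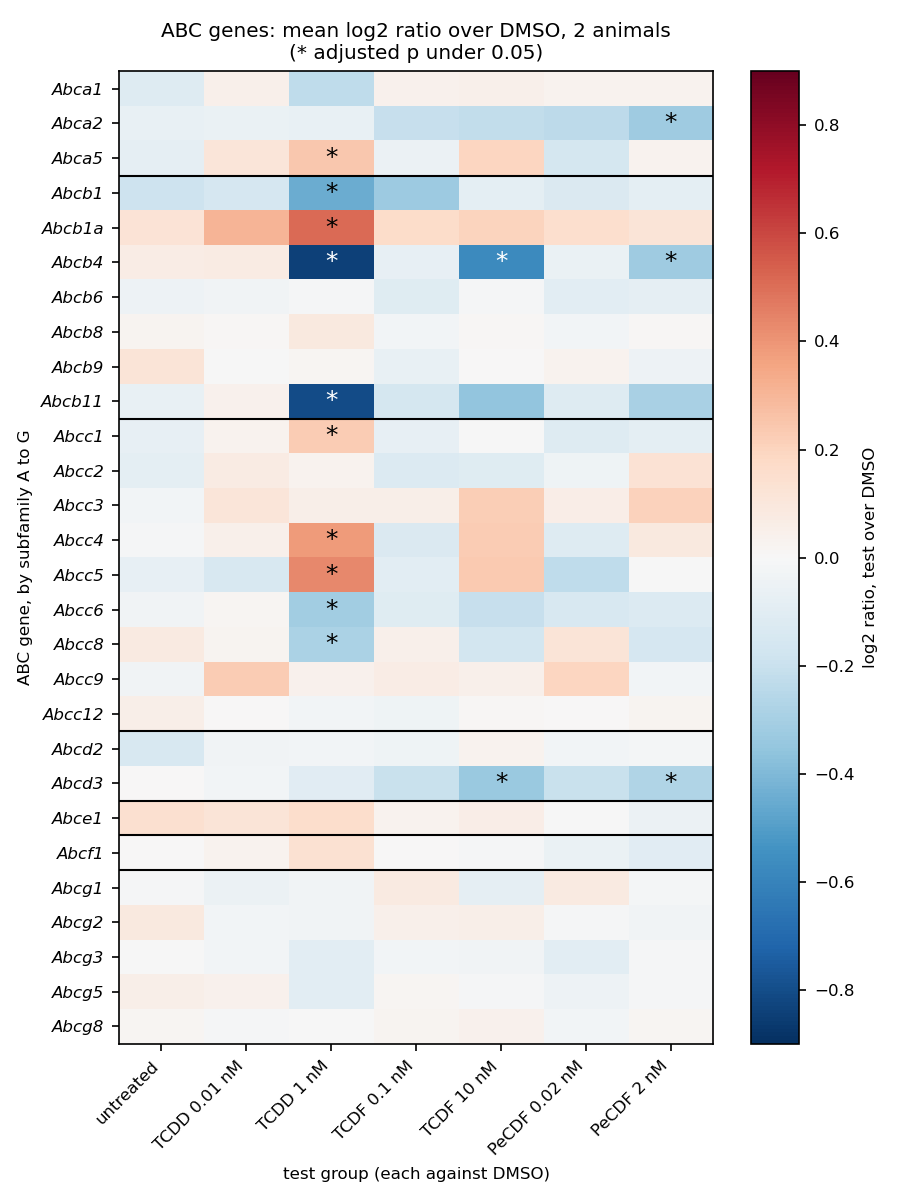
Heat map of the fitted log2 ratio to DMSO of the 28 ABC transporters (lines, by subfamily) in the 7 groups (columns), with an asterisk where limma's adjusted p was under 0.05. Asterisks stand in the 3 upper-dose columns alone, 10 with TCDD 1 nM, 2 with TCDF 10 nM and 3 with PeCDF 2 nM, and Abcb4 carries one in each of them.

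Abcb4, the canalicular phosphatidylcholine floppase, was the one member called with all 3 compounds. With TCDD at 1 nM its log2 ratios were -0.82 (A+), -0.81 (B+), -0.80 (A-) and -0.93 (B-). With TCDF at 10 nM they were -0.58, -0.64, -0.41 and -0.68 in the same order, and with PeCDF at 2 nM they were -0.37, -0.32, -0.31 and -0.29. All 12 arrays were thus below DMSO, the 3 groups did not overlap one another, and the 16 arrays of the untreated and lower-dose groups, between -0.14 and 0.11, overlapped none of them. The fitted log2 ratio was -0.84 ± 0.04 (SE, n = 2 animals) with TCDD, a 1.79-fold lower signal, with a 95% interval of -0.94 to -0.74 and an adjusted p of 4.8e-06. It was -0.58 ± 0.04 with TCDF (1.49-fold lower, adjusted p = 0.000262) and -0.32 ± 0.04 with PeCDF (1.25-fold lower, adjusted p = 0.00466). The PeCDF call was lost without animal A (-0.30, adjusted p = 0.111, in a range of 3.85e-06 to 1 over the alternatives), and median centring gave -0.15 with TCDF (range of adjusted p 3.02e-10 to 0.495). On the intensity scale, the geometric mean was 650.2 in the TCDD channels and 1163 in the DMSO channels of the same arrays.

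Abcb11, the bile salt export pump, fell with TCDD at 1 nM to about the same extent but less evenly. Its log2 ratios were -0.60 (A+), -0.998 (B+), -0.56 (A-) and -1.05 (B-). Both orientations of animal B were lower than both of animal A, and all 4 arrays lay below those of the untreated and TCDD 0.01 nM groups, which ran from -0.16 to 0.09. The fit gave -0.80 ± 0.09 (SE, n = 2 animals; 1.74-fold lower, adjusted p = 0.000304). With TCDF at 10 nM the arrays read -0.41, -0.40, -0.28 and -0.32, and with PeCDF at 2 nM -0.38, -0.26, -0.32 and -0.22. All 8 were below DMSO, and neither group was called (adjusted p = 0.0716 and 0.0925). Both were called when the groups of one reading session were fitted alone (adjusted p = 0.0337 and 0.0371) and in an array-level fit with a dye term (adjusted p = 0.000226 and 0.0011). The array-level fit takes the 2 orientations of an animal as separate arrays with a correlation of 0.39, so technical replicates add to its precision. Over all genes it called 2804 with TCDF 10 nM and 4495 with PeCDF 2 nM, against 823 and 1530 in the main fit. Median centring gave 0.17 for Abcb11 with TCDF. With loess, the PeCDF arrays overlapped those with TCDF at 0.1 nM, which ran from -0.27 to -0.07.

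Of the other canalicular pumps, Abcc2, Abcg2, Abcg5 and Abcg8 gave no call. Abcc2, the multidrug resistance protein that exports conjugates into bile, had log2 ratios of -0.10 (A+), 0.17 (B+), -0.09 (A-) and 0.14 (B-) with TCDD at 1 nM. The same division by animal was present with TCDF at 10 nM, at -0.22, 0.08, -0.32 and 0.03, and with PeCDF at 2 nM, at -0.05, 0.34, -0.07 and 0.28. Animal A was below DMSO and animal B above it in all 3 groups, so the group means of 0.03, -0.11 and 0.13 had wide 95% intervals, of -0.23 to 0.29, -0.36 to 0.15 and -0.13 to 0.38. Abcg2, the breast cancer resistance protein, which exports sulphated conjugates and planar xenobiotics, stood at -0.03 ± 0.04 with TCDD (95% interval -0.12 to 0.06), at 0.05 with TCDF and at -0.03 with PeCDF. The sterol exporter pair Abcg5 and Abcg8 stood at -0.09 ± 0.04 and -0.01 ± 0.04 with TCDD. Both were dim, with DMSO intensities of 75.56 and 77.79 on these arrays, of which the background correction's offset makes up 50. Ratios so near the floor are drawn toward 0, so these values do not show whether the pair changed. A change of the size seen for Abcb4 lay outside the intervals of Abcg2 and of Abcc2 with TCDD.

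Abcb1a encodes one of the P-glycoproteins of rodents, canalicular exporters of hydrophobic drugs. With TCDD at 1 nM its log2 ratios were 0.49 (A+), 0.45 (B+), 0.59 (A-) and 0.51 (B-). With TCDD at 0.01 nM they were 0.14, 0.40, 0.21 and 0.48, and with TCDF and PeCDF at the upper doses they ranged from 0.07 to 0.40 and from 0.01 to 0.26. Every array of these groups was above DMSO, as were the 4 untreated arrays (0.07 to 0.18), and animal B of the lower TCDD dose overlapped the upper dose. The fitted value was 0.51 ± 0.07 with TCDD 1 nM (SE, n = 2 animals; 1.42-fold higher, adjusted p = 0.00164), and was not called with TCDD 0.01 nM (0.31, adjusted p = 0.146), TCDF 10 nM (0.20, adjusted p = 0.269) or PeCDF 2 nM (0.12, adjusted p = 0.483). At 0.01 nM TCDD it was called with animal within a reading session as a block (adjusted p = 0.0393) and in the array-level fit with a dye term (adjusted p = 0.00151). Over all genes these fits called 321 and 714 at that dose, against 157 in the main fit. The probe named Abcb1 on the array carries an accession that RefSeq now assigns to Abcb1b, the second rodent P-glycoprotein gene. The mean of this probe was below DMSO in all 7 groups, among them -0.325 with TCDF 0.1 nM and -0.184 in untreated cells, each on all 4 arrays. The probe read -0.04 (A+), -0.74 (B+), -0.17 (A-) and -0.83 (B-) with TCDD at 1 nM, so that animal B accounted for nearly all of the mean of -0.45 ± 0.13 (adjusted p = 0.0498). Without animal B in that group the value was -0.11 with an adjusted p of 0.764, and adjusted p over the alternatives tried ran from 0.000648 to 0.764. Abcb1a and Abcb1b are near-identical paralogs, and cross-hybridisation between their probes was not tested.

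**Figure D2:**
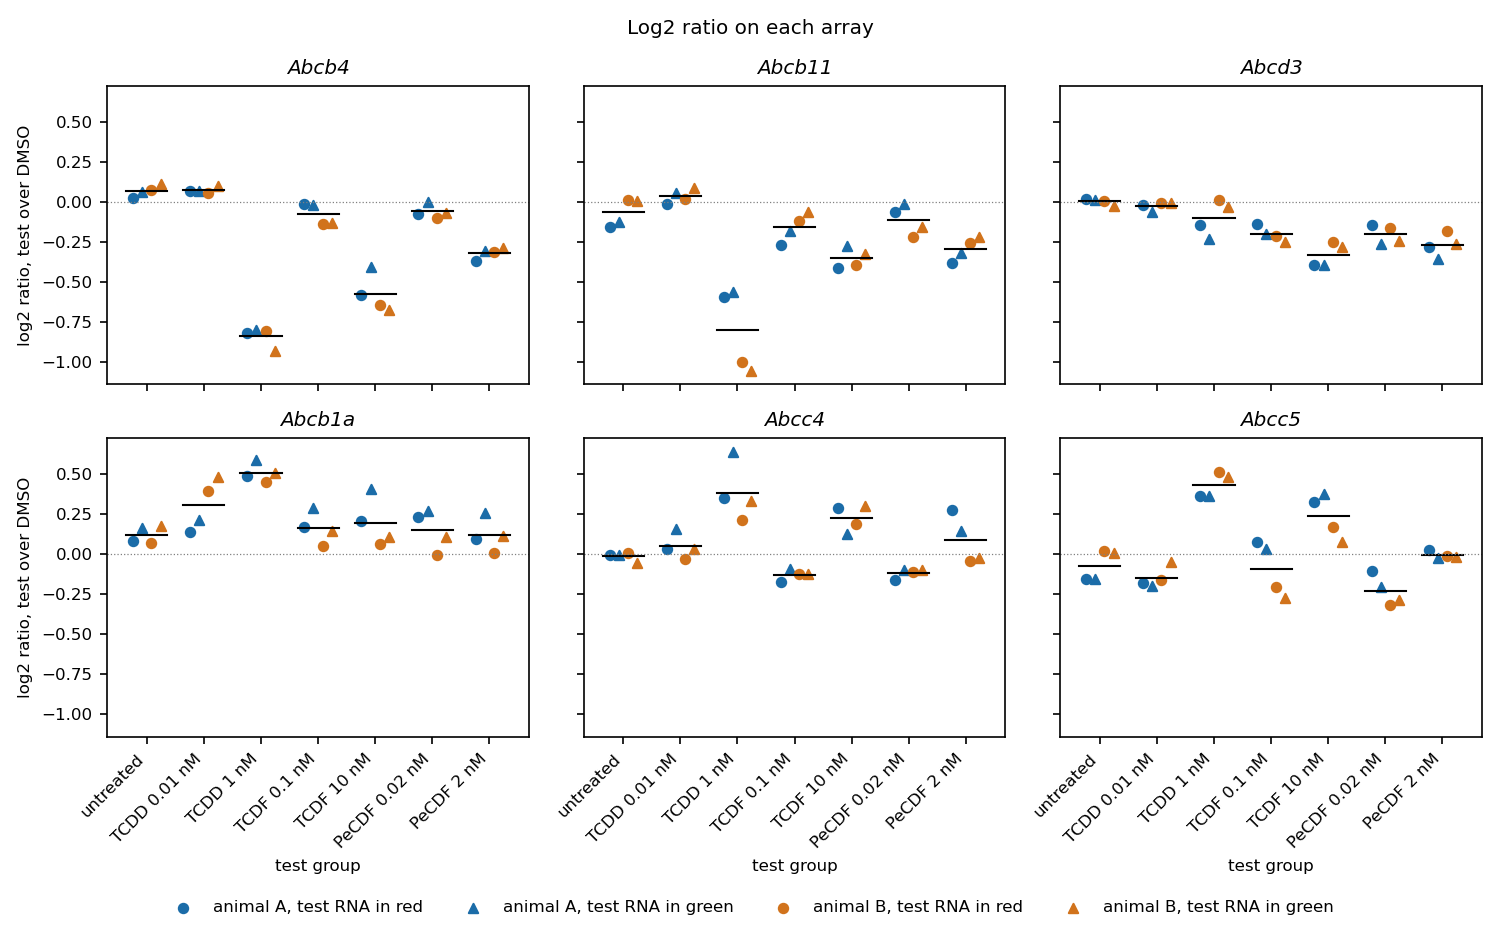
Log2 ratio to DMSO (y axis) of Abcb4, Abcb11, Abcd3, Abcb1a, Abcc4 and Abcc5 on each of the 4 arrays of the 7 groups (x axis), with each point 1 array marked by animal and dye orientation and the bar the fitted mean. The TCDD 1 nM arrays of Abcb4 lie between -0.93 and -0.80, and those of Abcb1a between 0.45 and 0.59.

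Abcb4, Abcb1b and Abcb1a are successive protein-coding genes on the minus strand of chromosome 4, and the first fell while the last rose. Their promoters are shown because neighbouring genes changed in opposite directions with TCDD, those of Abcc4 and Abcd3 because each was called at an upper dose, and all 5 because the AHR acts at the core GCGTG. Each sequence is the 250 bases before the gene start in RefSeq's promoter table (build GRCr8), written 5′ to 3′ on the gene's strand, with capitals marking GCGTG or its complement CACGC.
Abcb4, chr4:26164146-26164395, minus strand: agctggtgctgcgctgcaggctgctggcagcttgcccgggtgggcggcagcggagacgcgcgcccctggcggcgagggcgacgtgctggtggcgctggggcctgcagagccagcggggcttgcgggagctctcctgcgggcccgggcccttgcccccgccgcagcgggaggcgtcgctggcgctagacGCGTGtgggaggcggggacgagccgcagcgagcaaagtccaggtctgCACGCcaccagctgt
Abcb1b, chr4:26280030-26280279, minus strand: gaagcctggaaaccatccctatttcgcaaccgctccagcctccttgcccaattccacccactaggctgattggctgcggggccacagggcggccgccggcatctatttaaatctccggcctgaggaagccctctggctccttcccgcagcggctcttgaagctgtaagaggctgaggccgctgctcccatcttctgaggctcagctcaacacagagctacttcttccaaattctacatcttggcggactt
Abcb1a, chr4:26397649-26397898, minus strand: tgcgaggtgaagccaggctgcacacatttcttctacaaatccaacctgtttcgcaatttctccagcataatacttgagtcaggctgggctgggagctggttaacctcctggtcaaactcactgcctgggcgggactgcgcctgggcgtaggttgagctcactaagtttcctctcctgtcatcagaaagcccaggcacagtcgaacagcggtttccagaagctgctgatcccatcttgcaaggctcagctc
Abcc4, chr15:102181365-102181614, minus strand: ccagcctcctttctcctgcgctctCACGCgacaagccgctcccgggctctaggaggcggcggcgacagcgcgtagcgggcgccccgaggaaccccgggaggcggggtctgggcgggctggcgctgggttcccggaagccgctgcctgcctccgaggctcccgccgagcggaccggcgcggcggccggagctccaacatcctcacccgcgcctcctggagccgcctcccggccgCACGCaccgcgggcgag
Abcd3, chr2:212590380-212590629, minus strand: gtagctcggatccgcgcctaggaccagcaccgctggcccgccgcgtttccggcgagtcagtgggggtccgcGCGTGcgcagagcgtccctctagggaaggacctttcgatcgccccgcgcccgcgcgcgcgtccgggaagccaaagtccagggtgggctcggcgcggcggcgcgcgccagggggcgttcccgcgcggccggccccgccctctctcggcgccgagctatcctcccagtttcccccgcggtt
The Abcb4 window held the core at 62 and 15 bases before the start, and the match at 15 also fitted the longer form TNGCGTG, as CACGCCA on the printed strand. The Abcc4 window held it at 226 bases (in the longer form, as CACGCGA) and at 17 bases, and the Abcd3 window at 179 bases. No match was present in these letters of Abcb1b or Abcb1a. RefSeq's gene models reach beyond the table's start by 295 bases for Abcb4, 127 for Abcb1b, 90808 for Abcb1a and 1548 for Abcc4, so the models include starts further out. A match is a stretch of letters and not a measured binding site.

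Over the members, 22 of 28 had a promoter in the table, and no sequence was used for Abcb11, Abcc3, Abcc5, Abcc8, Abcf1 or Abcg1. The core GCGTG, searched on both strands, lay in 10 of the 22 windows (Abca5, Abcb4, Abcb6, Abcb8, Abcc1, Abcc4, Abcc9, Abcd2, Abcd3 and Abce1) and in 25.9 percent of all 33469 windows of the same length. Of the 9 matched members that were called at an upper dose, 5 had it. The longer form TNGCGTG, which contains the core, lay in 3 windows (Abcb4, Abcb6 and Abcc4) and in 4.09 percent of all. The antioxidant response element core TGACNNNGC lay in those of Abcg5 and Abcg8, a divergent pair whose windows overlap, and in 10.1 percent of all. The nuclear receptor half-site AGGTCA lay in 4 (Abcb6, Abcb8, Abcc2 and Abcd2) and in 14.1 percent of all. GC content of the printed windows was 76 percent for Abcb4, 77.6 percent for Abcc4 and 75.6 percent for Abcd3, against 58 percent for Abcb1b and 54 percent for Abcb1a.

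Among the ABCC exporters, 3 that serve efflux from the cell rose with TCDD at 1 nM. Abcc4, a basolateral exporter of cyclic nucleotides and of bile salts with glutathione, had log2 ratios of 0.35 (A+), 0.22 (B+), 0.64 (A-) and 0.33 (B-). Its fitted value was 0.38 ± 0.06 (SE, n = 2 animals; 1.30-fold higher, adjusted p = 0.00251). All 4 arrays with TCDF at 10 nM were above DMSO as well, at 0.29, 0.19, 0.13 and 0.30, without a call (adjusted p = 0.0939), whereas with PeCDF at 2 nM animal A was above (0.27 and 0.14) and animal B slightly below (-0.04 and -0.02). Abcc5, a cyclic nucleotide exporter, read 0.37, 0.51, 0.36 and 0.48 with TCDD, and 0.33, 0.17, 0.38 and 0.07 with TCDF. With PeCDF its 4 arrays lay between -0.03 and 0.03 and did not overlap either of the other groups. The fit gave 0.43 ± 0.08 with TCDD (1.35-fold higher, adjusted p = 0.00561), 0.24 with TCDF (adjusted p = 0.194, or 0.0296 with animal within a reading session as a block) and -0.01 with PeCDF (adjusted p = 0.987). Abcc1, an exporter of glutathione conjugates, rose by 0.23 ± 0.05 with TCDD (adjusted p = 0.0127), and its arrays spread from 0.10 in animal B to 0.43 in animal A. Abcc3, the basolateral exporter of glucuronides, was not called with TCDD (0.05 ± 0.07), TCDF (0.22, adjusted p = 0.141) or PeCDF (0.21, adjusted p = 0.128). Its dimmer second probe, also without a call, read -0.177, 0.215 and 0.073 in the same order.

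The ABCC members that fell with TCDD 1 nM were Abcc6 and Abcc8. Abcc6, a basolateral protein needed for ATP release from hepatocytes, read -0.18 (A+), -0.28 (B+), -0.35 (A-) and -0.44 (B-), and its fitted value was -0.31 ± 0.06 (adjusted p = 0.00552). Abcc8, the sulphonylurea receptor subunit of ATP-sensitive potassium channels, read -0.15, -0.23, -0.32 and -0.45, with a fitted value of -0.29 ± 0.05 (adjusted p = 0.0064). In both genes the test-green arrays were lower than the test-red array of the same animal. Neither was called with TCDF at 10 nM (adjusted p = 0.0982 for Abcc6 and 0.191 for Abcc8), although all 8 of those arrays were below DMSO. With animal as a block Abcc6 passed there as well (adjusted p = 0.0203). Without animal B in the TCDD group, the value was -0.27 for Abcc6 (adjusted p = 0.11), -0.24 for Abcc8 (adjusted p = 0.132) and 0.36 for Abcc5 (adjusted p = 0.114), and without animal A it was 0.12 for Abcc1 (adjusted p = 0.18). The size of several changes with TCDD 1 nM moved with the background correction: with none and with the deposited ratios, the values were 0.13 and 0.59 for Abcc4, -0.08 and -0.60 for Abcc8, 0.08 and 0.35 for Abcc1, and 0.25 and 0.51 for Abcc5. Abcc9, the other sulphonylurea receptor, and Abcc12, a little-studied member, gave no call. Over the alternatives, the adjusted p with TCDD 1 nM ran from 9.16e-06 to 0.949 for Abcc6, from 0.000123 to 0.132 for Abcc8, from 1.97e-06 to 0.252 for Abcc5 and from 0.000865 to 0.18 for Abcc1.

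Abcd3, the peroxisomal membrane protein that imports branched-chain acyl-CoA and bile acid intermediates, fell with both furans. Its log2 ratios were -0.40 (A+), -0.25 (B+), -0.40 (A-) and -0.28 (B-) with TCDF at 10 nM, and -0.28, -0.19, -0.36 and -0.26 with PeCDF at 2 nM. With TCDD at 1 nM they were -0.14, 0.01, -0.24 and -0.04, which overlapped the PeCDF arrays in animal A. The fitted value was -0.33 ± 0.05 with TCDF (SE, n = 2 animals; 1.26-fold lower, adjusted p = 0.00763), -0.27 ± 0.05 with PeCDF (1.21-fold lower, adjusted p = 0.0118) and -0.10 ± 0.05 with TCDD (adjusted p = 0.24). At the lower doses of both furans all 8 arrays were also below DMSO, from -0.25 to -0.14 with TCDF 0.1 nM and from -0.26 to -0.14 with PeCDF 0.02 nM, without a call (adjusted p = 0.312 and 0.517). The furan arrays were read in another session than the TCDD and untreated arrays, so session and compound cannot be told apart for Abcd3. With arrays centred on their median in place of loess, the TCDF value turned to 0.18 (adjusted p = 0.37), and without animal A it was -0.27 (adjusted p = 0.221) over a range of 6.03e-07 to 0.37 across the alternatives. The PeCDF call was lost with the deposited ratios (-0.27, adjusted p = 0.0663), under median centring (-0.17, adjusted p = 1), without animal A (-0.23, adjusted p = 0.245) and without animal B (-0.32, adjusted p = 0.0507). Its relative Abcd2, the adrenoleukodystrophy-related importer of very long-chain acyl-CoA, gave no call.

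In subfamily A, Abca2, an endosomal and lysosomal lipid transporter, read -0.50 (A+), -0.19 (B+), -0.37 (A-) and -0.21 (B-) with PeCDF at 2 nM. Animal A was lower than animal B in both orientations, and the fitted value of -0.32 ± 0.08 had an adjusted p of 0.0431. With TCDF 0.1 nM, TCDF 10 nM and PeCDF 0.02 nM all 4 arrays were also below DMSO, without a call in the main fit. The means of Abca2 there were -0.21, -0.22 and -0.24. In untreated cells, TCDD 0.01 nM and TCDD 1 nM, read in the other session, they were -0.07, -0.06 and -0.07. Session and compound cannot be told apart for Abca2 either. Abca5, a lysosomal lipid transporter, lay between 0.22 and 0.28 on all 4 arrays with TCDD at 1 nM (0.24 ± 0.06, adjusted p = 0.0296). Neither call held when either animal was left out of the group. Abca2 then stood at -0.20 without A (adjusted p = 0.513) and -0.44 without B (adjusted p = 0.0626), whereas Abca5 kept its size, at 0.25 (adjusted p = 0.125) and 0.24 (adjusted p = 0.219). Over all alternatives their adjusted p ran from 0.00034 to 1 and from 0.000425 to 0.719. Abca1, which loads cholesterol onto apolipoprotein A-I, had a value of -0.23 ± 0.07 with TCDD (adjusted p = 0.0759, or 0.0215 with animal within a reading session as a block) and of 0.04 and 0.03 with the furans.

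The remaining members gave no call at any upper dose. They were the mitochondrial Abcb6 and Abcb8, the lysosomal peptide transporter Abcb9, Abcc9, Abcc12, Abcd2, the sterol transporter Abcg1 and Abcg3, a rodent gene of unsettled function that RefSeq now names Abcg3l1. The soluble members were not called in the main fit on their brightest probe. Abce1, which recycles ribosomes, stood at 0.16 ± 0.05 with TCDD (adjusted p = 0.0559), and Abcf1, which acts in translation initiation, at 0.14 ± 0.06 (adjusted p = 0.194). Both were called there in the array-level fit with a dye term, where technical replicates add to the precision (adjusted p = 0.00238 and 0.0222). Abce1 was also called with animal within a reading session as a block (0.0466), without background correction (0.0366) and with a stricter filter on dim probes (0.0464). Their other probes differed in size and, with the furans, in direction. A second Abcf1 probe read 0.47 ± 0.10 with TCDD (adjusted p = 0.0106) and -0.48 with PeCDF (adjusted p = 0.022), where the brightest probe read 0.14 and -0.10 and the remaining probe 0.15 and 0.12. For Abce1 the second probe was called with TCDF (0.28, adjusted p = 0.0406) and PeCDF (0.25, adjusted p = 0.0477), where the brightest read 0.06 and -0.06. With TCDD all probes of both genes were above 0, and the mean of the kept probes was called for Abcf1 (0.25, adjusted p = 0.00674) and Abce1 (0.13, adjusted p = 0.0438). No direction is given for either gene with the furans.

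**Figure D3:**
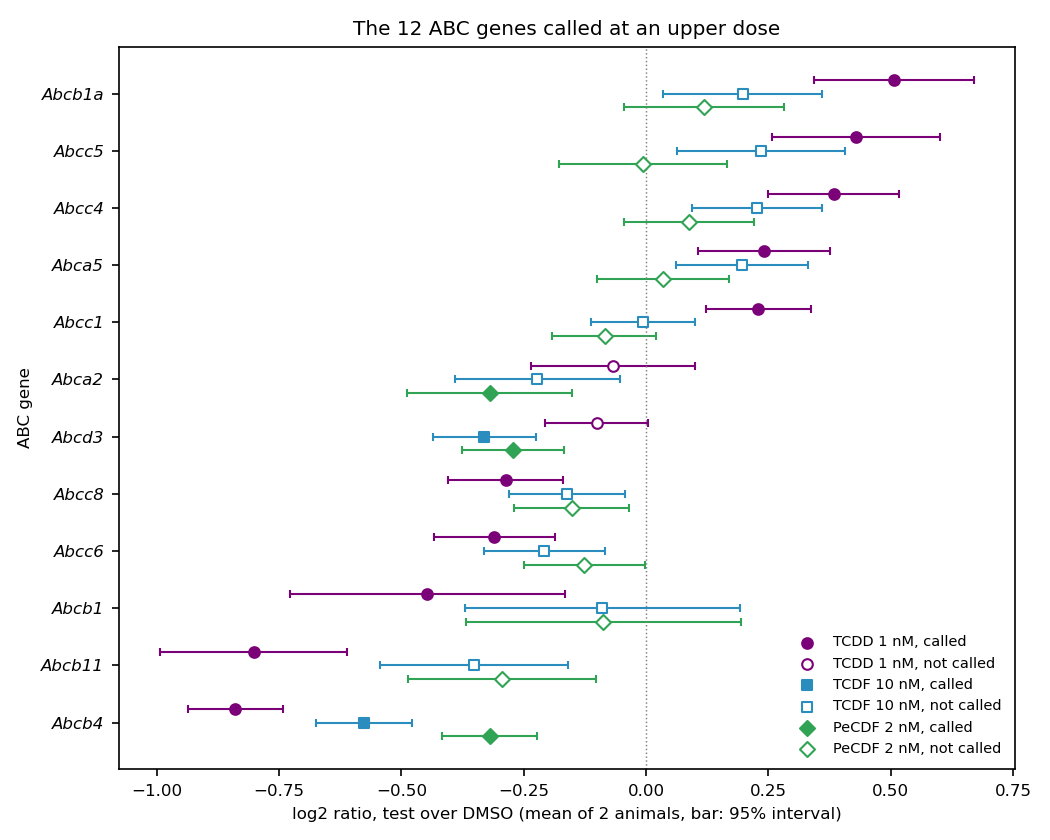
Fitted log2 ratio to DMSO (x axis) with its 95% interval of the 12 ABC transporters called at an upper dose (y axis), for TCDD 1 nM, TCDF 10 nM and PeCDF 2 nM. The intervals of Abcb4 lie apart from 0 with all 3 compounds, from -0.94 to -0.74 with TCDD, while Abcd3 stands at -0.33 and -0.27 with the furans and -0.10 with TCDD.

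At the lower doses and in untreated cells limma called no member. The shares of all genes called were 0.043 percent in untreated cells, 0.451 percent with TCDD 0.01 nM, 0.00287 percent with TCDF 0.1 nM and 0 percent with PeCDF 0.02 nM. At an unadjusted p under 0.05, untreated cells gave 2 members (7.14 percent, against 10.7 percent of all genes), with log2 ratios of all members between -0.18 and 0.14. TCDD at 0.01 nM gave 3 (10.7 against 10.5 percent), with values from -0.15 to 0.31. TCDF at 0.1 nM gave 3 (10.7 against 7.62 percent), from -0.33 to 0.16. PeCDF at 0.02 nM gave 8, of which 2 were higher and 6 lower (28.6 against 7.61 percent), from -0.24 to 0.19. The highest values with TCDD 0.01 nM belonged to Abcb1a (0.31) and Abcc9, whose arrays read 0.38, 0.27, 0.18 and 0.10 (0.23, adjusted p = 0.137). With animal as a block, since the same 2 animals ran through all groups, Abcc9 was called with an adjusted p of 0.0169. The same gene was called under 2 further alternatives (adjusted p = 0.0199 and, in the array-level fit, 0.0025) and not under the others.

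The step from the lower to the upper dose was tested within each compound. For TCDD, 4 members were called, 3 lower and 1 higher, against 2.34 percent of all genes lower and 1.39 percent higher. Abcb4 differed between the doses by -0.91 ± 0.06 (adjusted p = 8.04e-05), Abcb11 by -0.84 ± 0.12 (adjusted p = 0.00484) and Abcc8 by -0.31 ± 0.08 (adjusted p = 0.0487), and Abcc5 by 0.58 ± 0.11 (adjusted p = 0.0176). The Abcc5 and Abcc8 calls did not hold when either animal was left out, with steps of 0.60 and 0.55 for Abcc5 and -0.31 and -0.32 for Abcc8. Without background correction the Abcc8 step was -0.09 (adjusted p = 0.0855). In groups of one reading session alone, Abcc8 (adjusted p = 0.0851) and Abcb11 (adjusted p = 0.0571) were not called. The mean of Abcb1a was above DMSO in every group, at 0.12 in untreated cells, 0.16 with TCDF 0.1 nM and 0.15 with PeCDF 0.02 nM. Between the TCDD doses Abcb1a differed by 0.20 with a 95% interval of -0.03 to 0.43. With animal as a block, Abcc4 (adjusted p = 0.0432) and Abcc6 (adjusted p = 0.00968) were called too. For TCDF, Abcb4 alone was called, with a step of -0.50 ± 0.06 (adjusted p = 0.0221), against 0.089 percent of all genes; without either animal of the TCDF groups it was not called. For PeCDF limma called none, with 5 members at an unadjusted p under 0.05 (17.9 percent, against 5.14 percent of all genes) and 0.0833 percent of all genes called, and the Abcb4 step was -0.26 ± 0.06 (adjusted p = 0.287).

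The upper doses were also set against each other, at concentrations that differ between the compounds and, for TCDD against either furan, in different reading sessions. TCDD is a dioxin, TCDF a furan with the same number of chlorines and PeCDF a furan with an additional chlorine. Between TCDD 1 nM and PeCDF 2 nM, 1 member was called, against 0.847 percent of all genes, and 13 had an unadjusted p under 0.05 (46.4 percent, against 14.9 percent of all genes). That member was Abcb4, lower with TCDD by -0.52 ± 0.06 on the log2 scale (95% interval -0.66 to -0.38, adjusted p = 0.0152). Without animal B in both groups the difference was -0.47 with an adjusted p of 0.169. Between TCDD 1 nM and TCDF 10 nM none was called, with 6 at an unadjusted p under 0.05 (21.4 percent, against 12 percent of all genes) and 0.0631 percent of all genes called. Abcb4 differed there by -0.26 (95% interval -0.40 to -0.13, adjusted p = 0.157), Abcb11 by -0.45 (-0.72 to -0.18, adjusted p = 0.199) and Abcd3 by 0.23 (0.08 to 0.38, adjusted p = 0.23). Between PeCDF 2 nM and TCDF 10 nM, which were read in the same session, none was called, with 1 at an unadjusted p under 0.05 (3.57 percent, against 2.84 percent of all genes) and 0 percent of all genes called. That gene was Abcb4, with a difference of 0.26 (95% interval 0.12 to 0.40, unadjusted p = 0.00202, adjusted p = 1). Every comparison with DMSO rests on the DMSO RNA of the same 2 animals, so the groups' ratios share their control animals and are given side by side. The labels do not say whether 1 DMSO preparation of an animal served all of its arrays.

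Genes that supply or regulate these pumps were read from lists of their own. Over all gene names tested, 5.92 percent were called lower and 4.63 percent higher with TCDD 1 nM. The shares were 1.26 and 1.11 percent with TCDF 10 nM, and 2.67 and 1.72 percent with PeCDF 2 nM. Of 9 measured organic solute carriers of hepatocytes, 7 fell with TCDD at 1 nM and 1 each with TCDF 10 nM and PeCDF 2 nM. None rose, and the list medians were -0.35, -0.27 and -0.20. Slc10a1, the sodium-dependent bile salt uptake carrier NTCP, stood at -0.72 ± 0.12 (adjusted p = 0.00409), and the organic anion carriers Slco1a1 and Slco1a4 at -0.80 ± 0.09 (adjusted p = 0.000303) and -0.80 ± 0.10 (adjusted p = 0.000684), all with TCDD. Slc22a7, an organic anion carrier, was the one called with all 3, at -0.35, -0.38 and -0.35. Among 18 regulators, 2 rose and 2 fell with TCDD. Nr1h4, the bile acid receptor FXR that drives Abcb11, stood at -1.07 ± 0.12 (adjusted p = 0.000372), and Nr1i2, the xenobiotic receptor PXR, at -0.66 ± 0.05 (adjusted p = 3.09e-05). Nfe2l2, the oxidative stress regulator NRF2, stood at 1.25 ± 0.09 (adjusted p = 3.21e-05) and Nr5a2 at 0.32 ± 0.07 (adjusted p = 0.0119). With TCDF and PeCDF, Nr1i2 also fell (-0.35, adjusted p = 0.00728, and -0.28, adjusted p = 0.0118) and Nfe2l2 rose (0.53 and 0.62), while Nr1h4 at -0.32 and -0.39 was not called.

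Further lists covered lipid and organelle transport. The shares of all gene names called lower were 5.92 percent with TCDD 1 nM, 1.26 percent with TCDF 10 nM and 2.67 percent with PeCDF 2 nM. A single call in a short list is not read as a result about that list. Of 10 cholesterol and phospholipid partners, 4 fell with TCDD 1 nM and 1 each with the furans, and Npc1, which releases cholesterol from lysosomes, was called with all 3, at -0.56 ± 0.05, -0.25 and -0.33. Of 10 peroxisomal genes, 3 fell with TCDD (Hsd17b4, a beta-oxidation enzyme, at -0.52 ± 0.06, Ehhadh at -0.57 ± 0.13 and Pex16 at -0.28), and none was called with TCDF or PeCDF, the groups in which Abcd3 fell. Of 9 measured genes of mitochondrial heme and iron-sulphur transport, 2 fell with TCDD and 1 with PeCDF, among them Alas1, the rate-limiting enzyme of heme synthesis, at -0.28 and -0.36. Of 13 measured genes that anchor canalicular proteins, 1 fell with TCDD (Pdzk1, a scaffold protein, at -0.31 ± 0.07, adjusted p = 0.0155) and none with either furan. None of these lists had a called gene at a lower dose or in untreated cells.

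Through RefSeq, and without a check against the 28 members, 22 ABC transporter genes were found under other names on the array. With TCDD at 1 nM 4 of them fell, against 5.92 percent of all gene names, and none rose. With TCDF at 10 nM none was called, and with PeCDF at 2 nM 1 fell, against 2.67 percent. They were Abcg3l2 (-0.58 ± 0.06, adjusted p = 0.000136), Abca6 (-0.30 ± 0.05, adjusted p = 0.00355), Abca8a (-0.29 ± 0.06, adjusted p = 0.0107) and Abca8 (-0.25 ± 0.07, adjusted p = 0.0343), the last also at -0.29 with PeCDF (adjusted p = 0.0345). The genes Tap1, Tap2 and Cftr, family members with names of another form, gave no call at any upper dose.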

How the data were processed

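The deposited scanner files hold, for each of 28 2-colour arrays, spot intensity values that the authors read with Agilent Feature Extraction (A.7.5.1 per the file headers, 9.1 per the submitters' processing notes). The authors' log10 ratio, also deposited as a series table, served as an alternative and was turned to test over DMSO.

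From the deposited mean and background intensity, ratios were made in limma 3.58.1 (R 4.3.3) by normexp background correction (offset 50) and loess within each array, with control spots at weight 0 and 1067 outlier spots left out. Probes entered the test if all 4 arrays of any group, or at least 14 of 28 DMSO channels, had them well above background (37823 of 41012 probes). Spots were averaged per probe and orientations per animal, which left 14 ratios, and limma fitted the 7 group means together. Array number limits the precision. Nothing says that the animals' cultures were repeated, so the spread is that between 2 rats. The brightest probe stood for a gene. Of the members, those called at an upper dose and the canalicular pumps are given array by array, and of each other list up to 4 genes with the smallest p. The members and lists were chosen with earlier results of these data known.

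The same 2 animals, by the labels, ran through all groups. Deviations from the group means of same-animal samples correlated between -0.392 and 0.562 over 21 pairs of groups (median 0.126). Fits with animal as a block, other normalizations and fits without an animal were alternatives. The fit was tested on simulated data.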

Additional observations from a re-analysis of the deposited data

Results flagged for a closer look

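Of 48 groups of 4 arrays examined among the described members, 2 held an array whose gap to the nearest other, as a share of the group's range, exceeded Dixon's 95% critical value, which chance exceeds in about 1 group of 20. Abcc8 with TCDF 10 nM read -0.40 on the test-green array of animal B, and -0.11 to -0.06 on the others. Abcb4 with TCDD 1 nM read -0.93 on the test-green array of animal B, and -0.82 to -0.80 on the others.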

How the results depend on the processing

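Results were recomputed under 13 alternatives. Direction was kept in all of them for every call at an upper dose except that of Abcd3 with TCDF 10 nM. It turned to 0.18 under median centring in place of loess (the cause was not tested). Values without a call could turn as well, as Abcb11 with TCDF 10 nM did under median centring. The calls of Abcb4, Abcb11, Abcb1a and Abcc4 with TCDD 1 nM and of Abcb4 with TCDF 10 nM were kept in 12 of 13, lost under median centring, where the members' median with TCDF 10 nM was 0.19 and that of all genes 0.02.

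Counts of called members that moved by more than 1.5 times were as follows; smaller moves with TCDD 1 nM ran from 8 to 13. Median centring gave 0 with each upper dose, 0 between TCDD doses, 0 between TCDF doses and 0 between TCDD 1 nM and PeCDF 2 nM. The deposited ratios gave 1 with PeCDF 2 nM, 0 between TCDF doses and 0 between TCDD 1 nM and PeCDF 2 nM. Without background correction TCDF 10 nM gave 4, with 1102 calls over all genes against 823 in the main fit. The mean of the kept probes gave 2 between TCDD 1 nM and PeCDF 2 nM. Groups of one reading session alone gave 2 between TCDD doses and 0 between TCDF doses. With animal as a replicate block, TCDD 0.01 nM gave 1, TCDF 10 nM 3 and the TCDD dose step 6, and no call among the upper doses was lost. Over all genes that fit called 188, 955 and 1475, against 157, 823 and 1303 in the main fit. Animal within a session as a replicate block gave 2 with TCDD 0.01 nM, 4 with TCDF 10 nM, 7 between TCDD doses and 3 between TCDD 1 nM and PeCDF 2 nM. Its calls over all genes were 321, 1354, 2214 and 1241, against 157, 823, 1303 and 295 in the main fit. An array-level fit with a dye term gave 2 with TCDD 0.01 nM, 1 with TCDF 0.1 nM, 11 with TCDF 10 nM, 4 with PeCDF 0.02 nM, 6 with PeCDF 2 nM, 6 between TCDD 1 nM and TCDF 10 nM, 12 between TCDD 1 nM and PeCDF 2 nM, 8 between TCDD doses, 3 between TCDF doses and 1 between PeCDF doses. Over all genes this fit called 714, 622, 2804, 602, 4495, 2526, 3879, 3627, 434 and 569 in the same order. The main fit called 157, 1, 823, 0, 1530, 22, 295, 1303, 31 and 29.

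Leaving 1 animal out of the groups tested, where the lone sample is assumed to vary like the other groups, gave 5 to 8 with TCDD 1 nM, 1 to 2 with TCDF 10 nM, 0 to 1 with PeCDF 2 nM, 0 to 1 between TCDD 1 nM and TCDF 10 nM, 0 to 2 between TCDD 1 nM and PeCDF 2 nM, 2 to 3 between TCDD doses and 0 to 0 between TCDF doses.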
